A study of Mus musculus with 24 samples.

Results

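The 10 genes described here encode precursors of neuropeptides: Cck, Tac1, Penk, Pdyn, Npy, Sst, Nts, Vip, Cartpt and Grp. They were found by gene symbol among the annotated probe sets of a mouse expression array, which gave 11 probe sets (2 for Tac1, 1 for each other gene) of 45101 on the array, and all 10 are among the 18194 genes that could be named. The set was chosen from earlier results of these arrays, namely the signals of Grp at P0 and Tac1 at P4 in the ventrobasal complex, which differed between the treatments compared here, so those 2 differences are described with no test. Gene expression was measured on 24 arrays of 2 thalamic nuclei, the ventrobasal complex (VB), which relays touch, and the dorsal lateral geniculate nucleus (dLGN), which relays vision, at postnatal days P0 and P4. Control mice kept their eyes, and in embBE mice both eyes were removed in the embryo by cauterization. All were wild-type mice on a C57BL/6 background, and controls carried no other treatment. There were 3 arrays in each group but the newborn dLGN groups, which held 4 (embBE) and 2 (control). Every sample was a pool of tissue cut from vibratome sections of pups of 1 litter and 1 condition, and its RNA went through 2 rounds of amplification. The purpose of the arrays was to ask what the loss of retinal input does to gene expression in a nucleus that lost it and in a neighbour that did not.

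A neuropeptide is made as a longer precursor, cut by convertases inside dense-core vesicles and released to act on G protein-coupled receptors, usually more slowly and over a wider range than a fast transmitter. In the thalamus, relay neurons use glutamate, while inhibitory cells of the surrounding nuclei, such as the thalamic reticular nucleus, the ventral lateral geniculate nucleus and the zona incerta, are GABAergic and hold several of these peptides. Somatostatin, neuropeptide Y and enkephalin are well-known companions of GABA in the forebrain.

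The values are log2 signals, so that a difference of 1 is a 2-fold change, and a difference is said to be called where the fold was at least 1.5 and the unadjusted p was under 0.05 in limma, the threshold of the study. Adjusted p-values are Benjamini-Hochberg values over all 18194 genes. Nothing states that arrays of a group came from separate litters, and p-values then cover only the spread from array to array, which may be technical. A tissue piece mixes cell types, so fewer cells of a type and less RNA per cell cannot be told apart. Signals of different probe sets have no common scale and are not compared with each other.

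Of the relay neuron genes, Slc17a6 ran from 11.09 to 13.32 over the 24 arrays, Rora from 10.93 to 12.36, Tcf7l2 from 11.77 to 12.80 and Gbx2 from 4.57 to 9.05. The habenular genes Tac2, Chrnb4 and Pou4f1 ran from 3.96 to 4.56, from 6.03 to 6.60 and from 5.85 to 7.34, with Pou4f1 highest on newborn dLGN embBE array 39_3. The choroid plexus gene Ttr ran from 6.69 to 7.32 and the cortical gene Neurod6 from 2.46 to 3.88. The GABAergic gene Gad1 ran from 4.20 to 9.97. It was highest on the control array whose label carries the numbers 39_5, in VB and in dLGN. These 2 arrays stand apart in several of the peptide genes, and differences of the peptide genes that rest on them are given with and without them. The 12 dLGN arrays also had wider gaps between 3′ and 5′ probe sets of the actin control (2.21 to 4.27, median 3.76) than most VB arrays (1.95 to 4.29, median 2.27), a sign of shorter amplified RNA, so RNA quality moved with nucleus.

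Promoter sequence from RefSeq (GRCm38.p6) was listed for 8 of the 10 genes, all but Grp and Penk. Several neuropeptide genes are textbook targets of the factor CREB, which binds the cAMP response element, CRE. The full element TGACGTCA, its shorter core TGACG and the TATA box letters TATAAA were looked for on both strands in the 250 bases before each listed transcript start. For Sst and Cartpt that start lies inside the annotated gene, whose minus-strand span reaches to base 23891342 and base 99910179. The full element is in Sst, at bases -48 to -41 counted back from the start, and in Cartpt, at -112 to -105, and in 1.55% of all 32851 listed promoters. The core outside a full element is in Cck (-47 to -43), Tac1 (-43 to -39 and -197 to -193), Vip and Nts, and in 17.8% of all promoters, full elements included. TATAAA is in Vip, and in 12.4% of all promoters. These letters were in neither of the 2 listed Pdyn windows nor in the Npy window. The last 150 bases before the start are shown for the 2 genes with a full element and for Cck and Tac1, which hold the core and are described first, with the matched letters in capitals.
Sst, chr16:23890845-23890994, minus strand: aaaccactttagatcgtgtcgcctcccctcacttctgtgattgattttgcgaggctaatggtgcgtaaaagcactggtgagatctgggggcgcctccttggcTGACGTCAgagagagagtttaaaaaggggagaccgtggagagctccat
Cartpt, chr13:99900684-99900833, minus strand: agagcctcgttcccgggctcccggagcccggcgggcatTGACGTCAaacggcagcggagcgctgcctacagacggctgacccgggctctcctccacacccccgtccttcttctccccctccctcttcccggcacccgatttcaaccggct
Cck, chr9:121495695-121495844, minus strand: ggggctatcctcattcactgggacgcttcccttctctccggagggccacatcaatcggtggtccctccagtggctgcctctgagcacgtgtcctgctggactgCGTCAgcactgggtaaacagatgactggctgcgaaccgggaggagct
Tac1, chr6:7554911-7555060, plus strand: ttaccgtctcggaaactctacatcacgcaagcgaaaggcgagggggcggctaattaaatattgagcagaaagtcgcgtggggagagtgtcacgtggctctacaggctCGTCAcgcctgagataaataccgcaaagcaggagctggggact

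Cck, the precursor of cholecystokinin, a peptide of gut and brain, had the clearest pattern of the 10 genes: it was low in newborn dLGN and higher everywhere else. In dLGN at P0 its signal was 11.45 and 11.61 on the 2 control arrays. On the 4 embBE arrays there it was 10.55, 10.72, 10.82 and 11.00. In dLGN at P4 it was 12.56, 12.96 and 13.50 in controls and 12.59, 12.79 and 12.99 in embBE mice. The P0 and P4 arrays of dLGN did not overlap in either condition, and all 6 newborn arrays lay below all other arrays of the series.

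In VB, Cck was already near its later level at birth, with 12.14, 12.83 and 13.04 in controls and 12.71, 12.85 and 12.95 in embBE mice. At P4 the VB values were 12.96, 13.32 and 13.35 in controls and 13.20, 13.35 and 13.45 in embBE mice. Ordered by mean, the groups ran from dLGN P0 embBE (10.77 ± 0.19, SD, n = 4) over dLGN P0 control (11.53 ± 0.12, n = 2) and VB P0 control (12.67 ± 0.47, n = 3) to VB P4 embBE (13.33 ± 0.13, n = 3). The 3 lowest groups in that order did not overlap with each other, and from VB P0 control upward each group overlapped with the next.

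**Figure D1:**
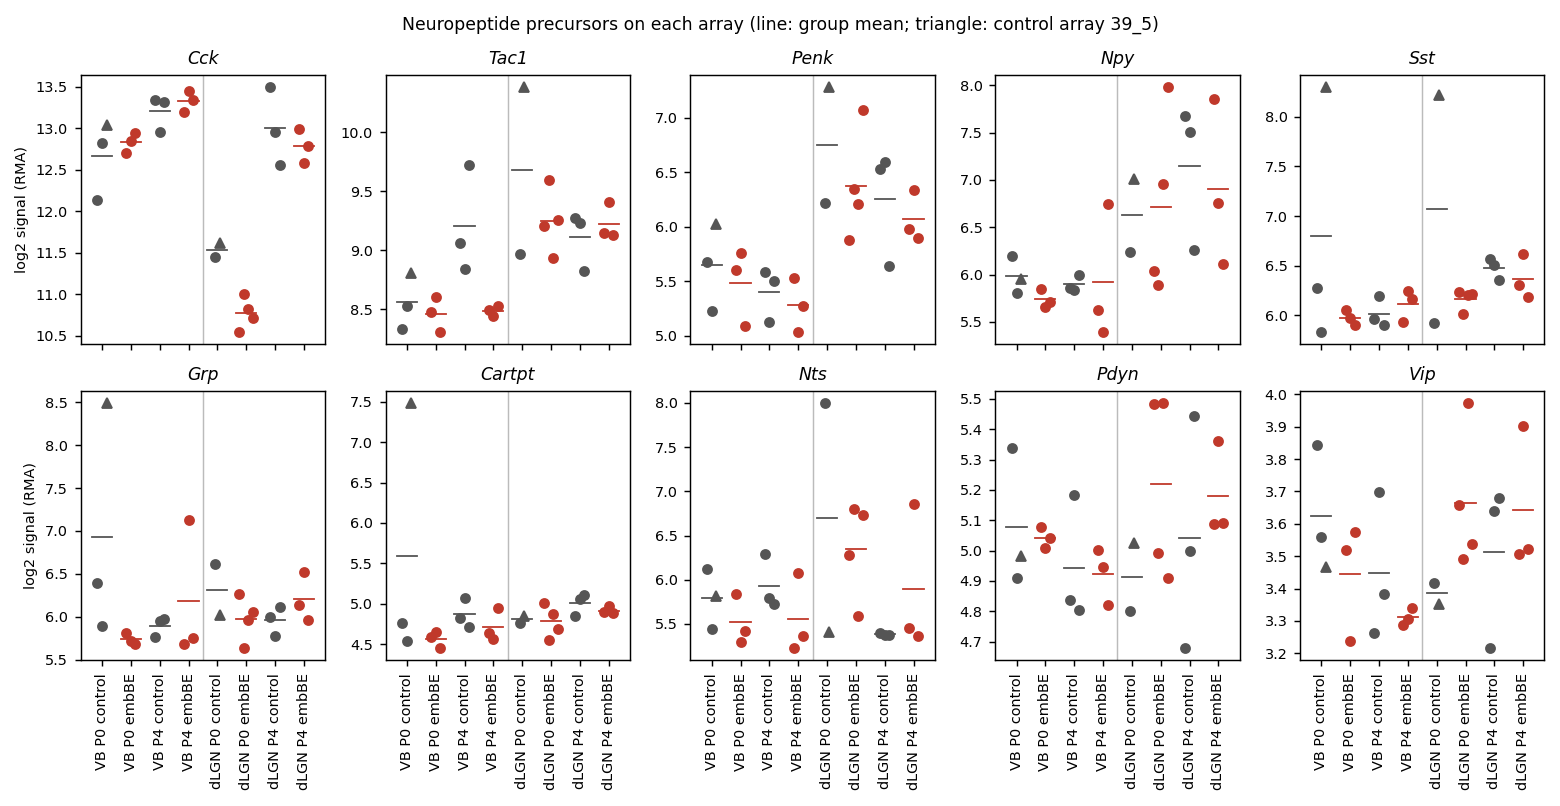
Log2 signal of the 10 precursor genes (1 panel each, with its own vertical scale) on each of the 24 arrays, by nucleus, day and treatment. Points are arrays, grey for control and red for embBE, lines are group means, and triangles mark control array 39_5. Cck is lowest on the 6 dLGN arrays of P0, and Sst, Grp and Cartpt are far above their other VB values on the triangle of VB P0.

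From P0 to P4, Cck rose in dLGN by 1.47 on the log2 scale in controls (SE 0.24, limma adjusted p = 0.0205) and by 2.02 in embBE mice (SE 0.20, adjusted p = 0.000906), a 4.06-fold change. It was the only 1 of the 10 genes called in each of these comparisons, in which 3.69% and 3.48% of all genes were called, 1.49% and 2.23% higher. Both rises were called in each of the 9 other settings and with each array left out, between 1.23 and 1.70 in controls and between 1.92 and 2.12 in embBE mice. In VB the differences between ages were 0.54 in controls (SE 0.20) and 0.50 in embBE mice (SE 0.20), and neither was called. The VB value in controls turned on newborn array 35_1, the lowest at 12.14 and an array with a wide actin gap of 4.29. It was 0.28 without that array, and 0.73 and called without 39_5. The rise in controls was 0.93 smaller in VB than in dLGN (SE 0.33, limma adjusted p = 0.623), in a contrast that called 3.08% of all genes.

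The nuclei differed in Cck at P0. In controls VB was 1.14 higher (SE 0.24, limma adjusted p = 0.016), and in embBE mice 2.06 higher (SE 0.20, adjusted p = 2.61e-06), a 4.18-fold difference. At P4 the differences were 0.20 in controls (SE 0.22) and 0.54 in embBE mice (SE 0.22), and neither was called. Over the mean of the 4 conditions VB was higher by 0.99 (SE 0.11, adjusted p = 1.46e-06). With the actin gap of each array as a covariate, a fit chosen after the data were seen, that mean difference was 0.66 (adjusted p = 0.000682), the difference in newborn embBE mice kept its call, and the one in embBE mice at P4 fell from 0.54 to 0.03. Of the 11 VB and dLGN arrays that carry the same label numbers, VB was higher in 5 of 5 at P0 and in 4 of 6 at P4.

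Cck was also lower after the loss of the eyes in dLGN at P0. All 4 embBE arrays there (10.55 to 11.00) lay below both controls (11.45 and 11.61), and the mean fell by 0.76 (SE 0.23, unadjusted p = 0.00545 and adjusted p = 0.851 in limma), a fold of 1.70. It was 1 of the 10 genes called, where 0.445% of all genes were called and 0.357% called lower. With 2 against 4 arrays the exact 2-sided permutation test gave p = 0.0667, the smallest it can give. Every alternative fit and every left-out array kept the call, between -0.84 and -0.68. Vip was the other 1 of the 10 genes whose newborn dLGN groups did not overlap. Its embBE arrays read 3.49 to 3.97 and its controls 3.35 and 3.42, a difference of 0.28 (SE 0.18) that was not called. The share of all genes without overlap was not counted, so nothing is read from the number of peptide genes without it. Markers of astrocytes and radial glia were lower on the same embBE arrays. Of 8 listed and measured, 2 were called lower, Fabp7 (-0.76) and Aldh1l1 (-0.75), and 1 lay above 0, with a median of -0.37 against 0.03 over all genes. Their mean deviation from the average array was -0.92 to -0.43 on the embBE arrays and -0.26 to -0.17 on the controls. These markers also moved with age in dLGN, 3 of 8 called higher in controls and 6 of 8 in embBE mice, against 1.49% and 2.23% of all genes. Their part in the Cck differences was not tested. At P4 the difference in dLGN was -0.22 (SE 0.21). In VB, embBE and control arrays overlapped at both ages, with differences of 0.17 at P0 (SE 0.20) and 0.12 at P4 (SE 0.20). The difference between VB and dLGN in the embBE effect at P0 was 0.93 (SE 0.32, unadjusted p = 0.0081, limma adjusted p = 0.551), where 2.54% of all genes were called. The same contrast called 0.478% of all genes at P4, and that of the embBE effect between ages called 0.346% in VB and 0.418% in dLGN.

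Across the 24 arrays the genes whose signal ran closest to Cck were Pcp4, a calmodulin regulator of neurons (Pearson r = 0.968), Mettl15 (r = 0.950) and Mgst3 (r = 0.939). These correlations describe 24 arrays that share 4 nucleus and age groups and have no test.

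Tac1, the precursor of substance P and neurokinin A, was higher in dLGN than in VB at P0. Its brighter probe set, used here, read 8.33, 8.53 and 8.81 on VB control arrays and 8.31, 8.48 and 8.60 on VB embBE arrays at that age. In dLGN at P0 it read 8.97 and 10.38 in controls and 8.93, 9.20, 9.26 and 9.60 in embBE mice. No VB array of P0 reached the lowest dLGN array of P0. At P4 the dLGN arrays stayed in the same range, 8.82, 9.23 and 9.27 in controls and 9.12, 9.14 and 9.40 in embBE mice.

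In VB at P4 the control arrays read 8.84, 9.06 and 9.72 and the embBE arrays 8.44, 8.49 and 8.52. The embBE arrays lay below every control, with a mean 0.72 lower (SE 0.19). This difference was among the known results when the genes were chosen and is given with no test; 0.159% of all genes were called in that comparison, and Tac1 was 1 of 10 here. The lowest control was 0.32 above the highest embBE array. Without control array 40_1, the highest at 9.72, the difference was -0.47. In controls of VB, Tac1 was higher at P4 than at P0 by 0.65 (SE 0.19), and by 0.39 without 40_1. That difference holds the same control arrays and is given with no test, in a comparison where 5.10% of all genes were called and 3.69% called higher. In embBE mice of VB the difference between ages was 0.02 (SE 0.19). In dLGN it was -0.57 in controls (SE 0.33) and -0.02 in embBE mice (SE 0.27).

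Between nuclei, Tac1 was lower in VB by 1.12 in newborn controls (SE 0.30, limma adjusted p = 0.0659), and by 0.79 in newborn embBE mice (SE 0.25, adjusted p = 0.0553), and both were called. The differences that hold VB arrays of P4 are given with no test. In embBE mice at P4 VB was lower by 0.74 (SE 0.27), and in controls at P4 the difference was 0.10 (SE 0.27), the VB array 40_1 being the only 1 of 11 in which VB read higher than dLGN under the same numbers. Over the mean of the 4 conditions it was -0.64 (SE 0.14). Without both arrays numbered 39_5 the newborn control difference was -0.54 and not called, and the mean difference was -0.49. The dLGN array 39_5 read 10.38 against at most 9.60 on other dLGN arrays of P0. The dimmer Tac1 probe set (3.98 to 5.04 over all arrays) was called in no comparison. It differed between nuclei by -0.02 in newborn controls (SE 0.22) and by -0.20 over the mean of the 4 conditions (SE 0.10). With the mean of both probe sets the newborn differences were -0.57 in controls and -0.46 in embBE mice, under the fold threshold, and the mean difference was -0.42. The closest gene to Tac1 over the 24 arrays was Cadps2, a priming factor of dense-core vesicles (r = 0.775).

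**Figure D2:**
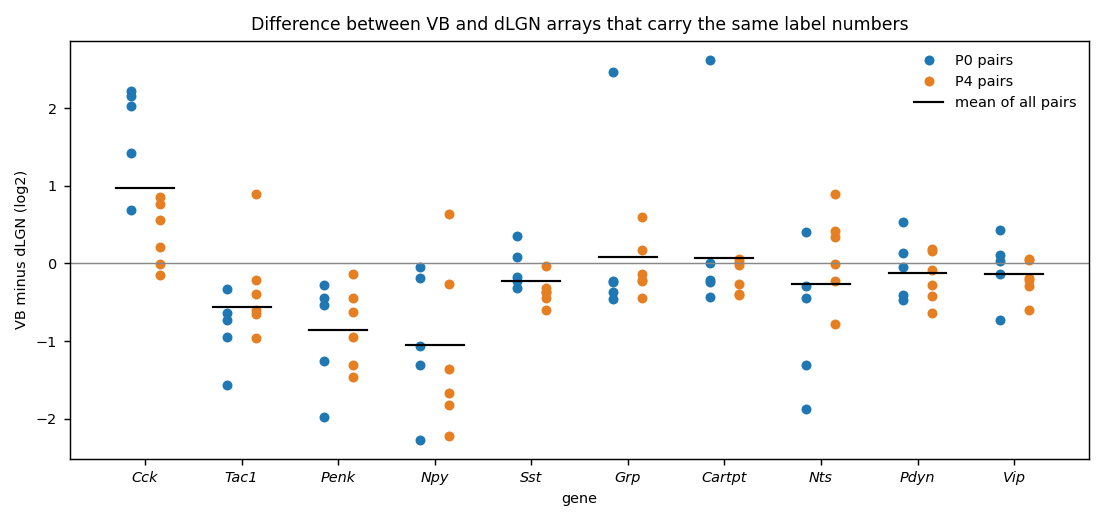
VB minus dLGN log2 signal for each precursor gene in the 11 pairs of arrays that carry the same label numbers. Blue points are the 5 pairs of P0, orange points the 6 pairs of P4, and black lines the mean of all 11. Penk lies below 0 in 11 of 11 pairs and Cck above 0 in 9 of 11.

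Penk, the precursor of the enkephalins, was higher in dLGN at both ages and in both conditions. On VB arrays it ran from 5.04 to 6.03 with a median of 5.52, and on dLGN arrays from 5.64 to 7.28 with a median of 6.28. Its mean over the 24 arrays was above that of only 28.3% of all genes. Penk was not in the fit that left out weak genes, and no detection calls were used. In VB at P0 the values were 5.23, 5.68 and 6.03 in controls and 5.09, 5.60 and 5.75 in embBE mice, and at P4 5.13, 5.50 and 5.58, then 5.04, 5.27 and 5.53. In dLGN at P0 they were 6.21 and 7.28 in controls and 5.87, 6.21, 6.34 and 7.07 in embBE mice. At P4 they were 5.64, 6.53 and 6.60 in controls and 5.90, 5.98 and 6.34 in embBE mice. The nuclei did not overlap in any of the 4 conditions.

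The Penk difference was called in each condition: VB was lower by 1.11 and 0.89 at P0 and by 0.85 and 0.79 at P4 in controls and embBE mice, with SE from 0.29 to 0.35 and limma adjusted p of 0.162, 0.0635, 0.198 and 0.0977. Single arrays decided some of these calls. The newborn control difference was -0.57 without dLGN array 39_5 and -0.76 without both arrays 39_5, and was not called. In controls at P4 the call was lost without dLGN array 24_2 or 36_3 or VB array 36_3, down to -0.68, and in embBE mice at P4 without array 36_2 of either nucleus, down to -0.66. Over the mean of the 4 conditions it was -0.91 (SE 0.16, limma adjusted p = 0.000307), called with each array left out. In 11 of 11 pairs of arrays dLGN was higher (exact sign-flip test, 2-sided p = 0.000977, the smallest it can give). That p is not adjusted for the other genes tested in this way, and it takes the pairs as independent. With the actin gap as a covariate the mean difference was -1.04 and it was called, and it was -0.82 and called without both arrays 39_5. The Penk differences between ages ran from -0.49 to -0.20 and those between embBE and control from -0.37 to -0.12, and none was called. The genes closest to Penk were Gata3 (r = 0.889) and Tal1 (r = 0.864), transcription factors of GABAergic neurons.

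Npy, the precursor of neuropeptide Y, was also higher in dLGN, but unevenly between arrays. VB arrays ran from 5.40 to 6.74 with a median of 5.84, and dLGN arrays from 5.89 to 7.98 with a median of 6.86. In dLGN at P0 the values were 6.24 and 7.01 in controls and 5.89, 6.03, 6.96 and 7.98 in embBE mice. At P4 they were 6.26, 7.51 and 7.68 in controls and 6.11, 6.76 and 7.85 in embBE mice. The highest array of dLGN lay 2.10 above the lowest within the P0 embBE group alone. In VB, 11 of 12 arrays lay at or below 6.19 and embBE array 40_3 of P4 at 6.74.

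Between nuclei, Npy was lower in VB by 1.25 in controls at P4 (SE 0.49, limma adjusted p = 0.241) and by 0.97 in newborn embBE mice (SE 0.46, adjusted p = 0.165), both called. The first lost its call without dLGN array 24_2 or 36_3, down to -0.99. It was -0.65 in newborn controls (SE 0.55) and -0.99 in embBE mice at P4 (SE 0.49), neither called. The mean of the 4 conditions was -0.96 (SE 0.25, adjusted p = 0.00789), and dLGN was higher in 10 of 11 pairs. The difference in newborn embBE mice lost its call without array 39_3 or 39_4 of dLGN, down to -0.55, or without any 1 of the 3 VB arrays. Between ages and between embBE and control no Npy difference was called. The closest gene was Drd1, a dopamine receptor (r = 0.803).

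In these comparisons of nuclei the share of genes called was large, so the counts of peptide genes have to be read against it. In newborn controls 3 of the 10 genes were called (Cck higher, Tac1 and Penk lower in VB) and 3.57% of all genes. In controls at P4 it was 2 of 10 and 4.70%, in newborn embBE mice 4 of 10 and 11.7%, and in embBE mice at P4 2 of 10 and 11.5%. Tac1 is 1 of the genes in the last of these counts and in the next, with the VB values of P4 that bear no test. Over the mean of the 4 conditions 4 of 10 were called (Cck higher, Npy, Penk and Tac1 lower), with 5.55% of all genes, 3.97% higher and 1.58% lower. The median difference of the 10 genes was -0.20, and that of all genes -0.05.

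Markers of GABAergic neurons moved with nucleus as well. Of 18 listed, 17 were measured, and their mean deviation from the average array ran from -0.46 to 0.74 in VB and from -0.09 to 0.85 in dLGN. Gad1 had a median of 5.16 in VB and 7.89 in dLGN, while Slc32a1 (6.47 and 6.58) and Sox14 (6.35 and 6.57) had nearly the same median in both. The part of these cells in the differences of Penk, Npy and Tac1 was not tested. For RNA quality only the covariate above was used, and of these genes its value is given for Penk alone.

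**Figure D3:**
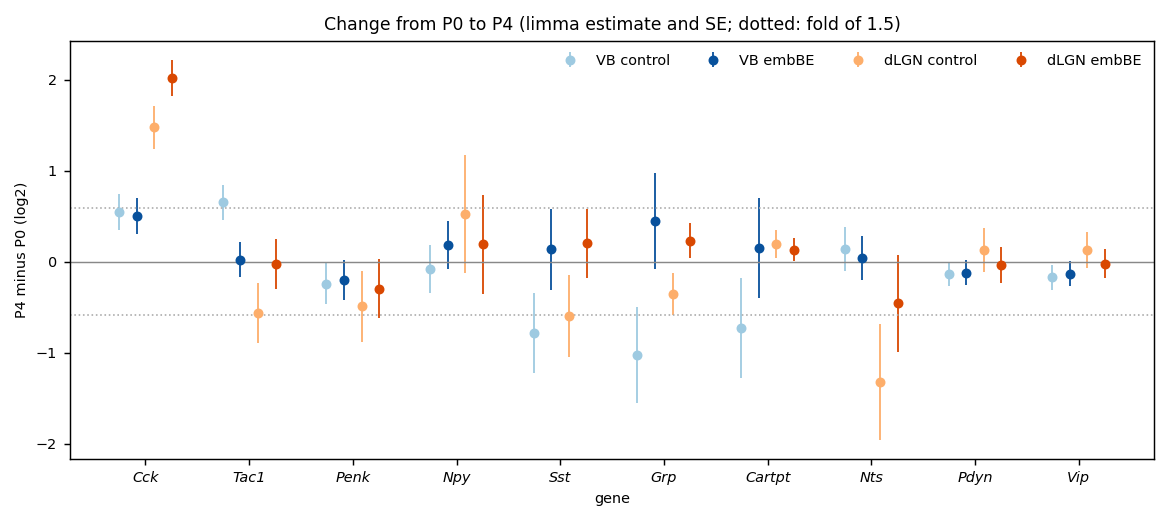
Change from P0 to P4 (log2, limma estimate with SE as bars) of the 10 precursor genes in VB and dLGN, control and embBE. Dotted lines mark a fold of 1.5. Cck in dLGN stands at 1.47 in controls and 2.02 in embBE mice, and Tac1 in VB controls at 0.65.

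Sst, Grp and Cartpt encode somatostatin, gastrin-releasing peptide and the CART peptide. In VB they stood out on 1 array. Sst read 8.30 on newborn control array 39_5 and between 5.84 and 6.28 on the other 5 newborn VB arrays. Grp read 8.49 there and 5.69 to 6.39 on the others. Cartpt read 7.48 there and 4.45 to 4.77 on the others. Among all 18194 genes, ranked by how far this array rose above the next highest newborn VB array, Cartpt came at rank 2, Grp at rank 6 and Sst at rank 7, and 20 genes stood over 1 log2 unit above.

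The same array was high in Gad1, the GABA-synthesizing enzyme (9.97 against 4.20 to 5.21), at rank 1, and in the transcription factors Dlx1 (6.81 against 4.34 to 4.53), Lhx1 (7.51 against 5.12 to 5.51) and Isl1, at ranks 4, 8 and 5. Gad2 read 6.95 against 4.93 to 5.54. Of the 17 measured GABAergic markers 11 were highest on it, and 9 of 16 relay neuron markers lowest, among them Gbx2 (7.05 against 7.48 to 8.40). Slc32a1 (6.66) and Sox14 (6.35) lay within the range of the others. Of the 8 microglia markers 6 were highest on it too. Of all genes 16.5%, and of the peptide genes 6 of 10, had their highest newborn VB value there.

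The dLGN array with the same numbers shared a part of this pattern. Sst read 8.22 on it and 5.93 to 6.24 on the other 5 newborn dLGN arrays, at rank 2 of all genes. Tac1 (10.38 against at most 9.60) came at rank 21 and Penk read 7.28 against at most 7.07. Grp (6.02) and Cartpt (4.85) lay within the range of the others, and Nts (5.41) and Vip (3.35) below it. Gad1 (9.51 against 6.01 to 8.26), Lhx1 (7.60 against at most 5.95) and Dlx1 (5.70 against at most 4.53) were highest there. Gbx2 was lowest (5.18 against at least 6.51). Among the 16 relay neuron markers 4 were lowest there and 1 highest, and Slc17a6 (11.83) lay within the range of the others. Slc32a1 (6.57) and Sox14 (6.44) lay within it as well. Of the GABAergic markers 9 of 17 had their highest newborn dLGN value on this array, as did 8.05% of all genes.

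**Figure D4:**
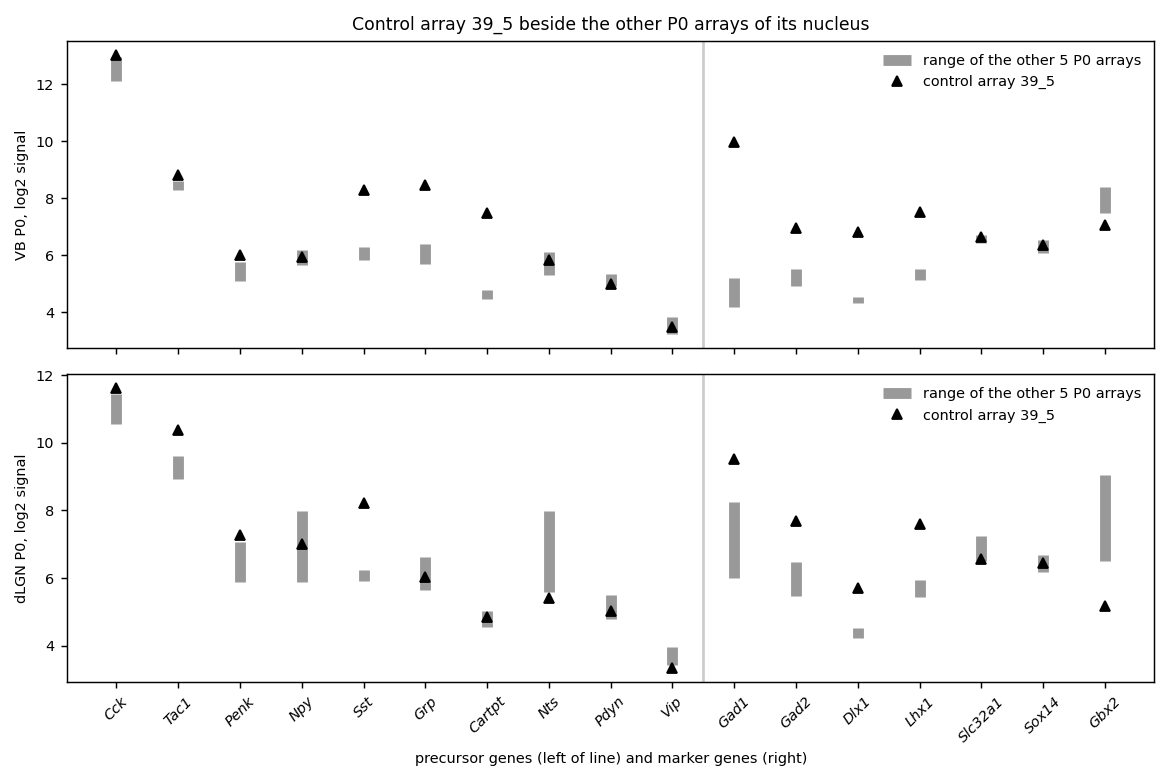
Log2 signal on control array 39_5 (triangle) and the range of the other 5 newborn arrays (grey bar) in VB (top) and dLGN (bottom), for the 10 precursor genes (left of the line) and 7 marker genes (right). In VB, Sst, Grp, Cartpt, Gad1, Gad2, Dlx1 and Lhx1 lie above the bar by over 1 log2 unit. In dLGN, Sst, Gad1, Gad2, Dlx1 and Lhx1 do.

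Every difference of these 3 genes between newborn VB groups rests on that array. Grp was lower in newborn embBE mice of VB by 1.19 (SE 0.53), and all embBE arrays (5.69, 5.72 and 5.81) lay below the controls (5.90, 6.39 and 8.49), the nearest control being 0.09 above the highest embBE array. This difference was known when the genes were chosen and has no test here; 0.726% of all genes were called in that comparison, and Grp was 1 of 10. Without 39_5 it was -0.40, under the fold threshold. Sst (-0.83, SE 0.44) and Cartpt (-1.03, SE 0.55) had differences of like size that were not called, and without 39_5 these were -0.08 and -0.09. The SE of the fit, shared by all 4 VB groups, also carries this array. In newborn dLGN, Sst differed by -0.91 between embBE and control mice (SE 0.43), which was not called, and the 4 embBE arrays (6.02 to 6.24) lay between the controls at 5.93 and 8.22. Without the dLGN array 39_5 the direction turned, to 0.24, and without the other control, 35_1, the difference was -2.05.

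Elsewhere the 3 genes varied less. Apart from 39_5, Sst ran from 5.84 to 6.62 on the other 22 arrays and Cartpt from 4.45 to 5.11. Grp ran from 5.64 to 6.61 on 21 of these, but for embBE array 36_2 of VB at P4 at 7.13. That array read 6.25 for Sst and 4.57 for Cartpt, within their usual range. In newborn dLGN, Grp read 6.61 on control array 35_1, 6.02 on control array 39_5 and 5.64 to 6.27 on the embBE arrays. Without both arrays 39_5, Grp and Sst were past the study's threshold in some of the comparisons. In that fit 35_1 is the only newborn dLGN control left. At P4 Sst was higher in dLGN in 6 of 6 pairs (exact sign-flip test, 2-sided p = 0.0312, the smallest it can give), by 0.36 on average. At P0 it was higher in dLGN in 3 of 5 pairs. The p is not adjusted for the other genes and ages tested in this way, and it takes the pairs as independent. No control array at P4 in dLGN (6.35, 6.50 and 6.57) overlapped with VB (5.90, 5.96 and 6.19). In embBE mice at P4 the nuclei overlapped, with 6.19 to 6.62 in dLGN and 5.94 to 6.25 in VB. In limma VB differed by -0.46 in controls (SE 0.47) and by -0.26 in embBE mice (SE 0.47) at P4. Both folds stayed under 1.5 and neither was called.

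Over the 24 arrays the genes closest to Sst were Lhx1 (r = 0.937), Dlx1 (r = 0.911) and Gad2 (r = 0.879). Without both arrays 39_5 these values were 0.603, 0.485 and 0.749 over 22 arrays. Those closest to Cartpt were Isl1 (r = 0.845), Dlx1 (r = 0.835) and Dlx5 (r = 0.798), with 0.405, 0.368 and 0.630 without 39_5. Grp ran closest to Cartpt (r = 0.796), and without 39_5 that value was 0.096. For Cck and Pcp4 it was 0.969 without these arrays, and for Penk and Gata3 0.870. None of these correlations has a test.

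Nts, the precursor of neurotensin, was scattered over newborn dLGN. The control arrays there read 7.99 (35_1) and 5.41 (39_5), and the embBE arrays 5.59, 6.28, 6.73 and 6.80. At P4 the 3 dLGN controls read 5.38, 5.38 and 5.40, and the embBE arrays 5.36, 5.45 and 6.86, the last being 36_2. In VB the 12 arrays ran from 5.23 to 6.29. No Nts difference was called in any comparison of all arrays. Without both arrays 39_5, where 35_1 is the only newborn dLGN control left, Nts was called in 8 comparisons, for example lower in newborn embBE mice of dLGN by 1.65 and lower in VB over the mean of the 4 conditions by 0.71 (limma adjusted p = 0.0246). The spread of a group of 1 array is then assumed to equal that of the others.

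Pdyn, the precursor of the dynorphins, and Vip, that of vasoactive intestinal peptide, showed no difference at the study's threshold in any comparison. Pdyn ran from 4.68 to 5.49 over the 24 arrays and Vip from 3.22 to 3.97. Their SD over the arrays, 0.225 and 0.207, was larger than that of 49.7% and 40.8% of all genes, whereas that of Cck, 0.935, was larger than that of 99.4%. Over the 24 arrays Pdyn and Vip ran close to each other (r = 0.810), and their closest genes were Igkv19-93 (r = 0.933) for Pdyn and Actl7b (r = 0.904) for Vip. No detection calls were used, so whether these weak signals lie above background could not be told. The same limit holds for Penk, Grp, Nts and Cartpt, which the filter on weak genes left out as it did Pdyn and Vip.

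**Figure D5:**
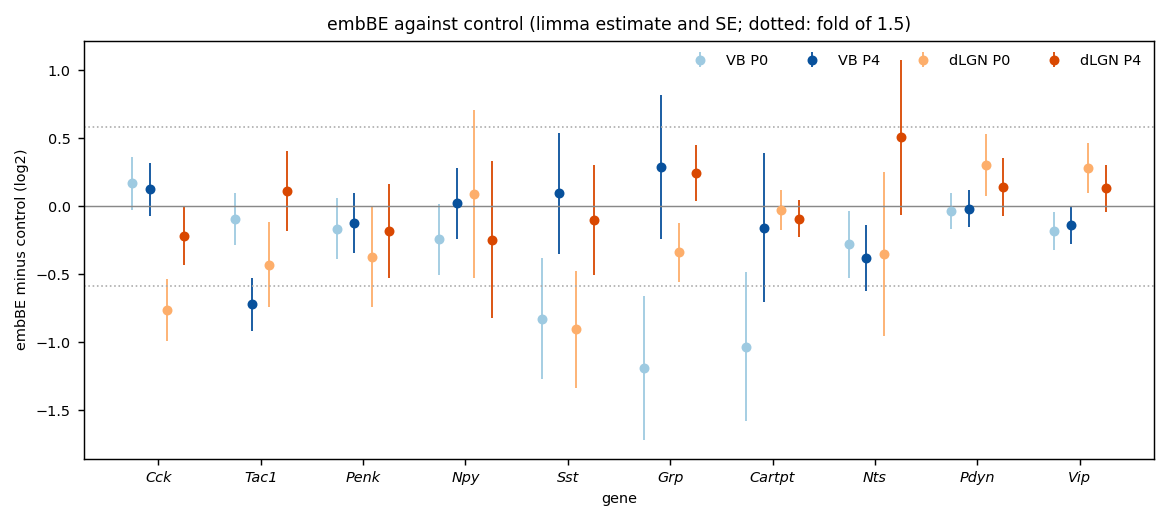
Difference of embBE from control (log2, limma estimate with SE as bars) of the 10 precursor genes at P0 and P4 in VB and dLGN. Dotted lines mark a fold of 1.5. Past the lower line lie Grp, Cartpt and Sst in VB at P0 and Sst in dLGN at P0, which all rest on the control array 39_5 of that nucleus, as well as Tac1 in VB at P4 and Cck in dLGN at P0.

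Over the 10 genes, the loss of the eyes gave 1 called gene in dLGN at P0, Cck, and 0 in dLGN at P4, where 0.198% of all genes were called. In VB only Grp at P0 and Tac1 at P4 were past the same threshold, the values the set was chosen by, and nothing is read from these counts. No gene of the array passed an adjusted p of 0.05 in any of these 4 comparisons in limma, while 1219, 724, 433 and 236 genes had an unadjusted p under 0.05. In VB at P0 and P4 and dLGN at P0 and P4, the medians of the 10 differences were -0.21, -0.07, -0.35 and 0.01, against medians of -0.03, -0.02, 0.03 and 0.01 over all genes.

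Of 39 other neuropeptide precursors listed, 30 were measured. Of all genes 3.69% were called higher with age in VB controls and 1.4% lower. With age in VB controls 3 of 30 were called higher and 0 lower, namely Pnoc, the precursor of nociceptin (1.76, SE 0.30, limma adjusted p = 0.00749), Gal, that of galanin (1.22, SE 0.18, adjusted p = 0.00402), and Adm, that of adrenomedullin (0.61, SE 0.15, adjusted p = 0.0471). In VB embBE mice 4.54% of all genes were called with age, and of this list Pnoc (1.83) and Gal (1.06). In dLGN Gal rose by 0.68 in controls and 1.17 in embBE mice, and Pnoc by 1.15 and 0.79, all called, as was Adm in controls (0.60). These comparisons called 3.69% of all genes in controls and 3.48% in embBE mice. Between nuclei Gal was the only 1 of the 30 called over the mean of the 4 conditions, higher in VB by 0.77 (SE 0.09, adjusted p = 4.28e-06). That comparison called 5.55% of all genes. In embBE against control 1 of 30 was called in 1 of the 4 comparisons, Pnoc in dLGN at P4 (-1.05, SE 0.38, adjusted p = 1).

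All 25 listed receptors of the 10 peptides were measured. Over the mean of the 4 conditions 2 were called higher and 2 lower in VB, and of all genes 3.97% and 1.58%. Npy5r, a receptor of neuropeptide Y, was higher in dLGN, as was its ligand Npy (VB lower by 0.82, SE 0.15, limma adjusted p = 0.00061). So was Tacr3, a tachykinin receptor (-0.62, SE 0.14, adjusted p = 0.00236). The newborn dLGN control array highest in Gad1, described above, read 0.88 higher in Tacr3 than any other newborn dLGN array. The Tacr3 difference without that array is not given here, so whether the call rests on it is not known. Ntsr2, of neurotensin (0.81, SE 0.12, adjusted p = 3.33e-05), and Adcyap1r1, of the PACAP and VIP family (0.63, SE 0.11, adjusted p = 0.000278), were higher in VB. Cckbr, the receptor of cholecystokinin in the brain, fell with age in VB controls by 0.66 (SE 0.11, adjusted p = 0.0059), where 1.40% of all genes were called lower. Npy1r rose there by 0.84 (SE 0.20, adjusted p = 0.0388) and Ntsr2 by 0.60 (SE 0.18, adjusted p = 0.0900). In VB embBE mice, where 4.54% of all genes were called with age, 5 of 25 receptors were called higher and 0 lower. These were Sstr4, a somatostatin receptor (0.99), Ntsr2 (0.88), Npy1r (0.86), Npy5r (0.76) and Adcyap1r1 (0.60), and Cckbr, at -0.34, was not called. In dLGN 0 of 25 were called with age in controls and 2 in embBE mice, Ntsr2 (0.84) and Adcyap1r1 (0.66). Of all genes 3.69% and 3.48% were called there. No receptor was called between embBE and control in any of the 4 comparisons.

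Of 23 genes of precursor processing and dense-core vesicles 22 were measured, and 6 were called between nuclei over the mean of the 4 conditions. That comparison called 5.55% of all genes, 3.97% higher and 1.58% lower in VB. Scg2, a secretogranin of the vesicle core (1.84, SE 0.24, limma adjusted p = 8.95e-06), and Cadps, a priming factor (0.60, SE 0.13, adjusted p = 0.00304), were higher in VB. Cadps2, its paralogue (-1.31, SE 0.15, adjusted p = 3.27e-06), Pam, which amidates peptides (-0.69, SE 0.10, adjusted p = 4.77e-05), the convertase Pcsk5 (-0.63, SE 0.11, adjusted p = 0.000208) and Vgf, a granin (-0.61, SE 0.09, adjusted p = 7.53e-05), were higher in dLGN. The convertase Pcsk1 (-0.07, SE 0.07) and the carboxypeptidase Cpe (0.27) were not called between nuclei. In embBE against control 1 of 22 was called in 1 comparison, Cadps2 in dLGN at P0 (-0.88, SE 0.29, adjusted p = 0.851). Cck was lower on the same embBE arrays. The newborn dLGN control array highest in Gad1, described above, read 0.70 higher in Cadps2 than any other newborn dLGN array. The Cadps2 difference without that array is not given here, so whether the call rests on it is not known.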

How the data were processed

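RNA of microdissected VB and dLGN was hybridized to Affymetrix Mouse Genome 430 2.0 arrays. The authors deposited log2 signals made with RMA, whose version is not given in the sources used here, for 45101 probe sets on 24 arrays. RMA models the probes of all arrays together and compresses weak signals, which can understate changes of dim genes. Precision is limited by the number of arrays. The 34958 probe sets with 1 gene symbol were kept, 932 with several and 9211 with none were left out, and the probe set with the highest mean stood for its gene (18194 genes).

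Groups came from the sample labels. For comparisons within a nucleus, limma 3.58.1 (R 4.3.3) was run on the 12 arrays of that nucleus. Comparisons of nuclei used all 24, and arrays of equal label numbers formed a random block. A call needs a fold of at least 1.5 and p under 0.05, without adjustment. The genes and lists were chosen with earlier results of these data known. Named genes are these 10, called genes of the 3 related lists (up to 4 per comparison), the closest genes by Pearson r and fixed cell type markers, while Rora and Tcf7l2 were named after their values were seen. Alternatives were the mean of probe sets, a filter on weak genes (12129 kept), cyclic loess, median centring, other fits, the methods' t-test, each array left out, and 3 fits chosen after the data were seen (the actin gap as a covariate, no VB controls 35_1 and 36_3, no arrays 39_5). Only the fit within VB was tried on simulated data, for embBE against control at P0. The fits between nuclei and in dLGN were not. Promoters were searched and figures drawn in Python 3.11.15 with matplotlib 3.10.9.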

Additional observations from a re-analysis of the deposited data

Results flagged for a closer look

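Cck and Tac1 gave 5 differences between effects past the study's threshold, which takes no adjustment. Neither of the Cck differences passed an adjusted p of 0.05 in limma. For Cck the embBE effect at P0 was 0.927 higher in VB than in dLGN (adjusted p = 0.551), and the change with age in controls was smaller in VB, at -0.934 (adjusted p = 0.623). For Tac1 the change with age in controls was 1.218 higher in VB than in dLGN, and 0.64 higher without both arrays 39_5. The embBE effect on Tac1 at P4 was -0.836 in VB relative to dLGN, and in VB it was -0.627 at P4 relative to P0. All 3 Tac1 values hold VB arrays of P4, whose difference was known when the genes were chosen, and they are given with no test.

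Among the 4 newborn embBE arrays of dLGN, Sst read 6.02 on array 39_2 and 6.21, 6.22 and 6.24 on the others, a gap of 0.852 of the whole range. Chance alone gives such a gap in about 1 in 20 groups.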

How the results depend on the processing

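No call reversed its direction under any alternative, and 402 of 466 recomputed values of single genes kept their side of the threshold, while 64 lost their call. The Cck calls in dLGN with age, between nuclei at P0 and between embBE and control in newborn dLGN held in every fit run. The counts of the 10 genes called moved more. In VB at P0 the embBE count of 1 went to 0 without the dimmer genes, with cyclic loess, with the methods' t-test, with the actin gap and without both arrays 39_5, to 2 with all arrays in 1 fit and to 3 without VB controls 35_1 and 36_3. In VB at P4 it was 0 with the mean of probe sets or the methods' t-test. In dLGN at P0 it was 2 with cyclic loess and 3 without 39_5. With age in VB controls it was 0 with the mean of probe sets, the methods' t-test or the actin gap, and 2 with all arrays, without 35_1 and 36_3 or without 39_5. In dLGN controls it was 2 with all arrays and 3 without 39_5. Between nuclei, controls at P4 gave 1 without the dimmer genes or without 35_1 and 36_3, and embBE at P4 gave 1 with the mean of probe sets, without the dimmer genes or with cyclic loess. For differences of effects, VB between ages gave 0 with the mean of probe sets or the actin gap, and dLGN between ages gave 1 with cyclic loess or the actin gap and 2 without 39_5. The embBE effect between nuclei gave 2 at P0 without 35_1 and 36_3 or without 39_5, and 0 at P4 with the mean of probe sets, and the control change with age between nuclei gave 1 with the mean of probe sets. The cause of these moves was not tested, apart from fewer genes or arrays where the alternative takes them out. The share of all genes called under each alternative is not given here, so nothing about the 10 genes is read from these counts.

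With each array left out in turn the counts ran from 0 to 3 (VB P0) and 0 to 2 (VB P4) for embBE against control, and from 1 to 3 (dLGN P0) and 0 to 0 (dLGN P4). With age they ran from 0 to 5 in VB controls, 0 to 0 in VB embBE mice, 1 to 4 in dLGN controls and 1 to 1 in dLGN embBE mice. Between nuclei they ran from 2 to 5 and 0 to 2 in controls, 3 to 4 and 1 to 3 in embBE mice, and 4 to 5 for the mean. For differences of effects they ran from 0 to 2 between ages in both nuclei, 1 to 3 and 0 to 1 between nuclei for embBE, and 2 to 3 for the controls. The highest count with age in VB controls, 5, came without newborn control array 35_2, and that in dLGN controls, 4, without newborn control array 35_1. Where a group is left with 1 array, that array is assumed to vary like the other groups. The share of all genes called with each array left out is not given either, and nothing is read from these counts.

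The label numbers were not shown to pair the arrays at P4. Same-numbered embBE and control arrays deviated together with r of -0.195, -0.05 and 0.219 in VB and 0.758, 0.0176 and 0.19 in dLGN. For VB and dLGN arrays of equal label numbers r ran from -0.552 (control 40_1) to 0.718 (control 24_2). With the first number as a replicate block 1 gene was called in VB at P4 and 0 in dLGN at P4, and without the random block between nuclei the counts stayed at 3, 2, 4, 2 and 4. The correlation estimated for that block was -0.0196.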
